A study of Homo sapiens with 6 samples.

Results

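The 10 genes examined were *DUSP4*, *DUSP5*, *DUSP6*, *SPRY2*, *SPRY4*, *SPRED1*, *SPRED2*, *ETV4*, *ETV5*, and *PHLDA1*. They were chosen by name as genes that ERK signaling is known to switch on, with earlier results of these data known, and all 10 were among the 58884 genes counted. The ERK cascade passes a growth factor signal from a receptor tyrosine kinase through RAS, RAF, and MEK to the kinase ERK, which phosphorylates targets in the cytoplasm and the nucleus. Part of the transcription that ERK induces acts back on the cascade. The DUSP phosphatases remove the activating phosphates from MAP kinases, and the Sprouty and Spred proteins restrain the steps around RAS and RAF. The PEA3 group factors ETV4 and ETV5 carry the transcriptional output. In squamous carcinoma cells, the cascade is commonly driven by the EGF receptor, and the mRNA levels of these genes are widely used as a readout of its output.

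HSC-4 is an established cell line of human oral squamous cell carcinoma, and DAPT blocks γ-secretase, a protease whose cut frees the intracellular domain of Notch. RNA was sequenced from 3 libraries of HSC-4 cells treated with 50 μM DAPT and 3 libraries of control HSC-4 cells, both at 24 h. The study's methods describe the control as the vehicle DMSO, the labels only as control, and the deposited names of these libraries hold the letters GM without an explanation. If the control cells received medium without DMSO, the vehicle and DAPT cannot be told apart. All libraries came from 1 cell line, and nothing in the labels states whether the replicates were separate cultures. The p-values therefore measure the spread between these samples, which may be technical.

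The total count per library lay between 12276313 and 16317672, and 3 reads, the smallest signal considered, corresponded to 0.187 to 0.248 CPM, the unit used here for counts scaled to a common, TMM-normalized library size. This limit covers counting error only. The Notch target genes *HES1*, *HES4*, *HEY1*, and *NRARP* fell in the DAPT libraries by 0.77, 1.48, 1.98, and 1.43 on the log2 scale, with no overlap between the groups. Of the squamous markers, *KRT5* was at 2701 ± 61.9 CPM (SD, n = 3) in the control and *TP63* at 378 ± 6.56 CPM, but *KRT14*, a keratin of basal squamous cells, reached only 3.17 ± 0.319 CPM. With DAPT, 5 of the 8 squamous markers fell, 2 rose, and *DSG3* did not pass the test, and their summed level was 5186 to 5361 CPM in the control libraries and 3339 to 3479 CPM in the DAPT libraries. Log2 fold changes were -1.04 for *KRT5*, -2.79 for *KRT14*, -1.48 for *KRT6A*, -0.88 for *KRT17*, and -0.58 for *TP63*, and 0.27 for both *CDH1* and *EPCAM*, the epithelial adhesion genes. Most of these markers thus differed between the same groups in which the genes described below were compared, and their part in those results was not tested. The summed level of 6 blood cell markers was 8.92 to 13.004 CPM, nearly all of it from *CD14* with 120 to 167 reads per library (log2 fold change -0.30, SE 0.12, adjusted p = 0.0444), while *CD3E*, which defines T cells, was at 0 in every library and *PTPRC*, the general leukocyte marker, had at most 2 reads. *CD68* had 0 to 3 reads, but 81.6% of its exonic bases are shared with another gene on its strand. Reads that overlap both genes were not counted, so this level says little. The 4 endothelial markers summed to 0.650 to 1.49 CPM, mostly *VWF* with 9 to 21 reads.

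Control replicate 1 stood apart from the other 5 libraries. The summed level of 7 fibroblast markers was 566 CPM there, 58.4 and 57.4 CPM in the other control libraries, and between 50.0 and 55.2 CPM in the DAPT libraries. It held 3452 reads of *COL1A2* against 3 to 28 elsewhere, and 329 reads of *DCN* against at most 2. *VIM*, a mesenchymal filament gene chosen after its values were seen, had 3849 reads there and 12 to 31 in the others. Each result is therefore also given without control replicate 1 where this moved it.

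Among the 10 genes, *ETV4*, *DUSP6*, and *DUSP5* were significantly lower with DAPT, by 39.0%, 30.6%, and 24.9%, respectively. The remaining 7 genes did not pass the test. These calls rest on the quasi-likelihood test of edgeR, with p-values adjusted over all 15001 genes tested (Benjamini-Hochberg) and a threshold of 0.05, and all 10 genes passed the filter on low counts. Of all genes tested, 18% were called lower and 17.2% higher (35.2% in either direction), so 3 of 10 lower is not far from the share among genes in general. The log2 fold change was below 0 for 9 of the 10 genes, with a median of -0.22 against 0.01 over all genes tested. No gene of the 10 was called higher by edgeR, DESeq2, or limma-voom (0 in each), and 0 of them were higher at an unadjusted p under 0.05. In 6 of the 10 genes every DAPT library lay below every control library, and in 1, *SPRED1*, every DAPT library lay above, while 22.7% and 23.6% of all genes tested did so. In whole cultures, fewer cells that express a gene and less RNA of it per cell cannot be told apart.

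When control replicate 1 was left out, the number called lower was again 3, but the genes were *DUSP5*, *ETV4*, and *SPRED2*. *DUSP6* no longer passed the test. In that fit 19.1% of all genes were called lower and 18% higher (37.1% in either direction), the median of the 10 genes was -0.29, and 7 of them lay wholly below the control (28.9% of all genes) and 1 wholly above it (29.4%). With all 6 libraries, the called genes split into 51.3% lower and 48.7% higher. When these libraries were scaled by their size alone, the split was 38.5% lower and 61.5% higher. Of all genes tested, 14.4% were then lower and 23% higher. DESeq2, also with all 6 libraries, called 2 of the 10 genes lower, beside 14.5% of all genes.

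**Figure D1:**
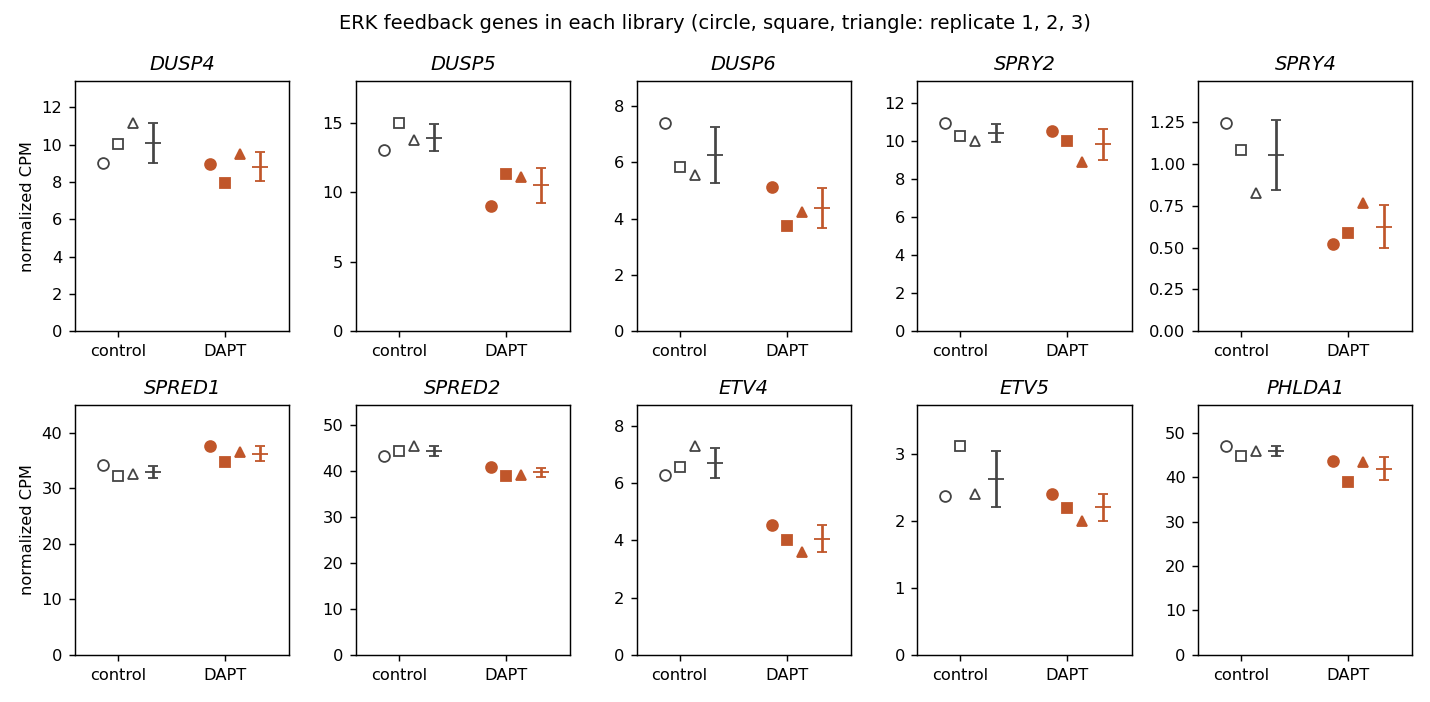
Normalized CPM (y axis, from 0) of the 10 genes in each control library (open symbols) and each DAPT library (filled symbols), with the mean ± SD of the 3 libraries beside them. *DUSP5*, *DUSP6*, *SPRY4*, *SPRED2*, *ETV4*, and *PHLDA1* show no overlap with DAPT lower, *SPRED1* shows none with DAPT higher, and *DUSP4*, *SPRY2*, and *ETV5* overlap.

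**Figure D2:**
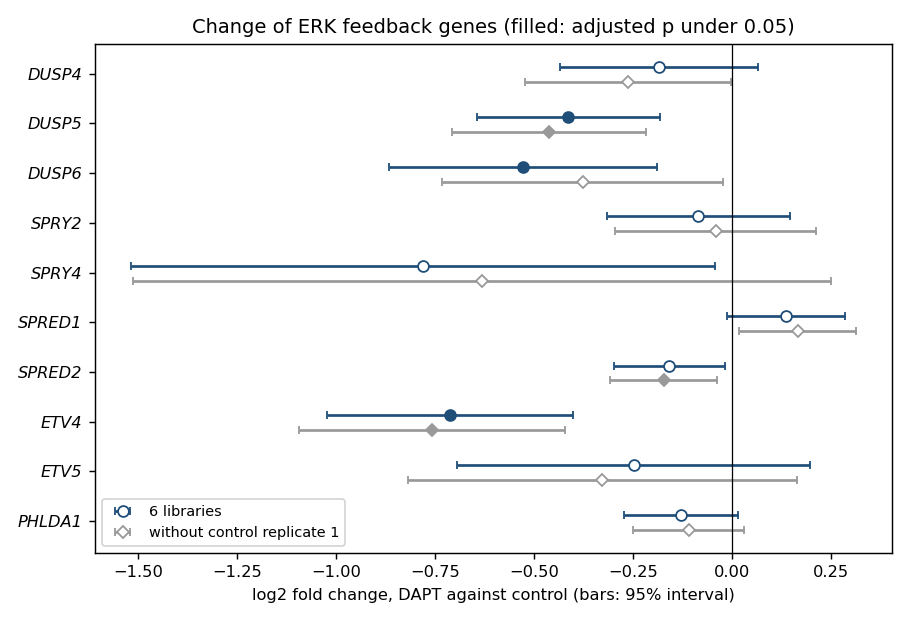
Log2 fold change of DAPT against control (x axis) with its 95% interval for the 10 genes, from all 6 libraries (circles) and without control replicate 1 (diamonds). Filled symbols mark an adjusted p under 0.05, which *ETV4* and *DUSP5* have in both fits, *DUSP6* only with all 6 libraries and *SPRED2* only without control replicate 1.

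The dual specificity phosphatases were examined first. *DUSP5* (ENSG00000138166, GRCh38 chromosome 10, 110497907 to 110511533, plus strand) encodes a nuclear phosphatase that acts on ERK. Its level was 13.1, 15.0, and 13.7 CPM in the control libraries and 9.03, 11.3, and 11.1 CPM in the DAPT libraries. All DAPT libraries were below all control libraries. This was a log2 fold change of -0.41 (SE 0.11, 95% interval -0.64 to -0.18, adjusted p = 0.00618). *DUSP5* passed the test in 15 of 15 alternative settings, with an adjusted p of up to 0.0492.

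*DUSP6* (ENSG00000139318, chromosome 12, 89347235 to 89352501, minus strand) encodes the cytoplasmic, ERK-selective phosphatase that is most often read as a measure of ERK output. It was at 7.41, 5.85, and 5.55 CPM in the control libraries and 5.13, 3.73, and 4.23 CPM in the DAPT libraries. The groups did not overlap, but the highest value of all was that of control replicate 1, the library with fibroblast markers at 566 CPM. The log2 fold change was -0.53 (SE 0.16, 95% interval -0.87 to -0.19, adjusted p = 0.0154). It was -0.38 without control replicate 1 (SE 0.17, 95% interval -0.73 to -0.02, adjusted p = 0.0887), and the part of the fibroblast RNA in this difference was not tested. The call was also lost without DAPT replicate 2 (-0.42, adjusted p = 0.0884), without DAPT replicate 3 (-0.50, adjusted p = 0.0534), and with DESeq2 (-0.53, adjusted p = 0.0564), while the value stayed below 0 in all 15 alternatives.

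**Figure D3:**
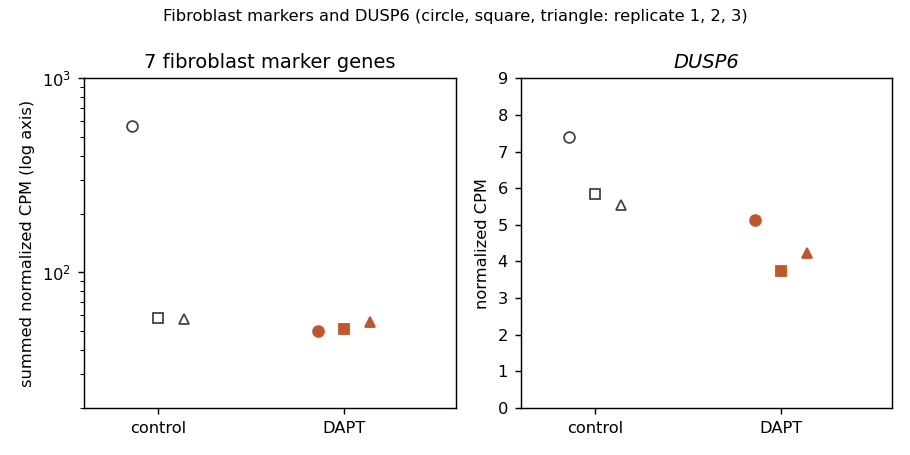
Summed CPM of 7 fibroblast marker genes on a log axis (left) and CPM of *DUSP6* on a linear axis from 0 (right) in each control library (open symbols) and DAPT library (filled symbols). Control replicate 1, the open circle, holds both the highest marker sum, 566 CPM, and the highest *DUSP6* level, 7.41 CPM. It was also the highest library for *SPRY2* (10.96 CPM), *SPRY4* (1.25 CPM), and *PHLDA1* (46.9 CPM), but not for the rest of the 10 genes. A link to the markers was not tested.

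*DUSP4* (ENSG00000120875, chromosome 8, 29333064 to 29350684, minus strand) encodes a nuclear phosphatase of ERK, JNK, and p38. It was at 9.03, 10.04, and 11.2 CPM in the control libraries and 8.96, 7.97, and 9.53 CPM in the DAPT libraries. The groups overlapped, since control replicate 1 was lower than DAPT replicate 3. Its log2 fold change was -0.18 (SE 0.12, 95% interval -0.44 to 0.07, adjusted p = 0.248). When control replicate 1 was left out, it was -0.26 (95% interval -0.52 to -0.002, adjusted p = 0.106). Leaving out control replicate 3 or DAPT replicate 2 gave -0.11 and -0.12.

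The Sprouty proteins are induced inhibitors that act between the receptor and RAF. *SPRY2* (ENSG00000136158, chromosome 13, 80335976 to 80341126, minus strand) was at 10.96, 10.3, and 10.02 CPM in the control libraries and 10.5, 10.02, and 8.91 CPM in the DAPT libraries. Its groups overlapped, and its log2 fold change of -0.08 had a 95% interval of -0.32 to 0.15 (SE 0.11, adjusted p = 0.591), which leaves room for a fall or a rise of that size.

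*SPRY4* (ENSG00000187678, chromosome 5, 142310427 to 142326455, minus strand) was the gene with the fewest reads, with 20, 15, and 10 reads in the control libraries and 8, 8, and 10 in the DAPT libraries. These corresponded to 1.25, 1.08, and 0.828 CPM and to 0.520, 0.585, and 0.768 CPM. All DAPT values were below all control values, by a narrow margin between control replicate 3 and DAPT replicate 3. A log2 fold change of -0.78 was obtained, with a wide interval of -1.52 to -0.04 (SE 0.35, unadjusted p = 0.0388, adjusted p = 0.0924). Without control replicate 1, the log2 fold change was -0.63, with an interval of -1.51 to 0.25 that includes 0 (adjusted p = 0.261). At this depth, the size of the difference was not resolved.

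The Spred proteins bring the RAS inhibitor neurofibromin to the membrane. *SPRED2* (ENSG00000198369, chromosome 2, 65310851 to 65432637, minus strand) was at 43.3, 44.3, and 45.4 CPM in the control libraries and 40.9, 39.0, and 39.3 CPM in the DAPT libraries. Both groups were tight and did not overlap. The log2 fold change was -0.16 (SE 0.07, 95% interval -0.30 to -0.02), with an adjusted p of 0.0726 in all 6 libraries and of 0.0399 without control replicate 1 (log2 fold change -0.17).

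*SPRED1* (ENSG00000166068, chromosome 15, 38252836 to 38357249, plus strand) was the only gene of the 10 with a value above 0. It was at 34.1, 32.1, and 32.6 CPM in the control libraries and 37.5, 34.7, and 36.5 CPM in the DAPT libraries, again without overlap. Its log2 fold change was 0.14 (SE 0.07, 95% interval -0.01 to 0.29, adjusted p = 0.146). Without control replicate 1, it was 0.17 (95% interval 0.02 to 0.31, adjusted p = 0.0731). With all 6 libraries, scaling by library size alone gave 0.18 with an adjusted p of 0.0491, so whether *SPRED1* passed the test depended on the normalization.

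Of the PEA3 group factors, *ETV4* (ENSG00000175832, chromosome 17, 43527844 to 43579620, minus strand) had the smallest adjusted p of the 10 genes. It was at 6.29, 6.57, and 7.29 CPM in the control libraries and 4.55, 4.02, and 3.61 CPM in the DAPT libraries. The groups stood well apart, with means of 6.72 ± 0.515 and 4.06 ± 0.469 CPM (SD, n = 3). The log2 fold change was -0.71 (SE 0.15, 95% interval -1.02 to -0.40, adjusted p = 8.2e-04), and it was -0.76 without control replicate 1 (adjusted p = 6.4e-04). *ETV4* passed the test in 15 of 15 alternatives, between -0.81 and -0.64.

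*ETV5* (ENSG00000244405, chromosome 3, 186046314 to 186110318, minus strand) was scarcer, at 2.37, 3.11, and 2.40 CPM in the control libraries and 2.40, 2.19, and 2.00 CPM in the DAPT libraries. Only control replicate 2 stood above the rest, and the groups overlapped. The log2 fold change was -0.25 (SE 0.21, 95% interval -0.69 to 0.20, adjusted p = 0.396), and it was -0.11 without control replicate 2 (adjusted p = 0.778). The interval includes the fall measured for *DUSP5*, so 26 to 43 reads per library did not decide whether *ETV5* changed.

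*PHLDA1* (ENSG00000139289, chromosome 12, 76025447 to 76033932, minus strand) encodes a pleckstrin homology-like domain protein whose transcript follows ERK activity. It was at 46.9, 44.7, and 45.9 CPM in the control libraries and 43.5, 38.8, and 43.4 CPM in the DAPT libraries. All DAPT libraries were lower, but the log2 fold change was small and did not pass the test (-0.13, SE 0.07, 95% interval -0.27 to 0.02, adjusted p = 0.157).

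The level of the genes was compared per exonic length, as RPKM. In the control libraries the order was *SPRED2* (8.06 ± 0.186 RPKM, SD, n = 3), *PHLDA1* (5.68 ± 0.136), *DUSP5* (5.50 ± 0.389), *SPRED1* (4.25 ± 0.134), *SPRY2* (3.24 ± 0.152), *ETV4* (1.91 ± 0.147), *DUSP6* (1.62 ± 0.259), *DUSP4* (1.39 ± 0.148), *ETV5* (0.455 ± 0.0722), and *SPRY4* (0.160 ± 0.0320 RPKM). The libraries of *PHLDA1* and *DUSP5*, of *ETV4* and *DUSP6*, and of *DUSP6* and *DUSP4* overlapped, so these neighbours in the order did not differ beyond their spread. Among the RPKM levels of all genes tested, *SPRED2* lay at percentile 62.3, *PHLDA1* at 52.9, and *DUSP5* at 52.1. The other 7 genes lay below the median, from percentile 45.8 for *SPRED1* to 25.9 for *DUSP6* and 2.02 for *SPRY4*.

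Related genes were then compared within each library, as a ratio of their RPKM, which does not depend on the scaling between libraries. For 5 pairs the log2 ratio was compared between the groups by a two-sided exact permutation test, where 3 against 3 libraries cannot give a p below 0.1. The *ETV4* to *ETV5* ratio was 4.37, 3.48, and 4.98 in the control libraries and 3.11, 3.01, and 2.97 in the DAPT libraries. All DAPT ratios were lower, by 0.48 on the log2 scale on average (exact permutation p = 0.1, adjusted over 5 pairs 0.25). The *SPRED2* to *SPRED1* ratio was 1.79, 1.94, and 1.96 in the control libraries and 1.53, 1.58, and 1.51 in the DAPT libraries, also without overlap, with a difference in log2 ratio of -0.30 (exact permutation p = 0.1, adjusted 0.25).

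The *SPRY4* to *SPRY2* ratio differed by -0.67 and the *DUSP4* to *DUSP6* ratio by 0.33 on the log2 scale, both with overlapping groups (exact permutation p = 0.2, adjusted 0.25, for each). Without control replicate 1, the *DUSP4* to *DUSP6* difference was 0.13. The *DUSP5* to *DUSP6* ratio differed by 0.11 (exact permutation p = 0.6, adjusted 0.6). It was -0.06 without control replicate 1 and -0.06 without DAPT replicate 2, so no direction can be given for this pair. No ratio could pass the threshold in a design of this size.

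**Figure D4:**
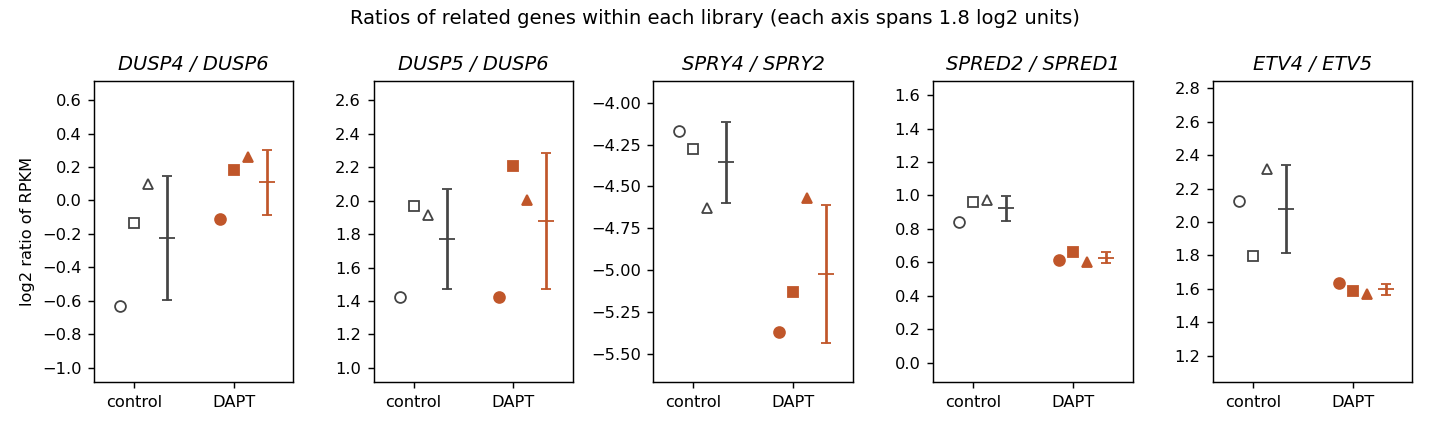
Log2 ratio of the RPKM of 2 related genes within each library (y axis; each axis spans 1.8 log2 units), for control (open symbols) and DAPT (filled symbols), with the mean ± SD of 3 libraries. Only the *SPRED2* / *SPRED1* and *ETV4* / *ETV5* ratios show no overlap, with DAPT lower in both.

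The 13 other genes of the same families served as a comparison, and all were tested. Of these, 2 were lower and 2 higher, with a median log2 fold change of -0.12. Among all genes tested, 18% were lower and 17.2% higher. *DUSP9*, a cytoplasmic phosphatase that prefers ERK, showed the largest change of the 13. It was at 15.0, 20.1, and 18.1 CPM in the control libraries and 6.69, 9.73, and 8.07 CPM in the DAPT libraries, and its log2 fold change was -1.12 (SE 0.13, adjusted p = 3.7e-06). *DUSP7*, the third phosphatase of this cytoplasmic, ERK-selective group beside *DUSP6* and *DUSP9*, was lower by a small amount (-0.23, SE 0.07, adjusted p = 0.0105), at 52.7 to 63.0 CPM in the control libraries and 48.8 to 48.9 CPM in the DAPT libraries.

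*DUSP16*, which acts on JNK and p38, rose from 45.1 ± 0.700 to 56.2 ± 1.89 CPM (SD, n = 3; log2 fold change 0.32, SE 0.06, adjusted p = 4.3e-04). The other phosphatases of this preference did not pass the test, with values of 0.47 for *DUSP8* (SE 0.21, adjusted p = 0.0863) and -0.12 for *DUSP10* (SE 0.06, adjusted p = 0.139). Neither did the nuclear, inducible phosphatases *DUSP1* (-0.08) and *DUSP2* (-0.58, SE 0.26, adjusted p = 0.0863). *DUSP2* was called lower when control replicate 1 was left out (-0.71, adjusted p = 0.0468).

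Among the remaining relatives, *SPRY1* was at 4.42, 4.62, and 3.89 CPM in the control libraries and 6.30, 5.12, and 6.53 CPM in the DAPT libraries. It rose by 0.47 on the log2 scale (SE 0.15, adjusted p = 0.0224). The values of *SPRY2* and *SPRY4* lay below 0, but neither gene was called, so no contrast within the family was established. *SPRY3* was at 0.19, *SPRED3* at -0.65 (SE 0.26, adjusted p = 0.0574), *ETV1* at -0.55 (SE 0.32, adjusted p = 0.189), and *PHLDA3* at -0.09, none of which passed the test. *PHLDA2* was at -0.54 in all libraries (SE 0.23, adjusted p = 0.123) and at -0.75 without control replicate 1 (adjusted p = 1.1e-04), where it was called lower.

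As a share of the summed RPKM of each family, *ETV4* made up 75.8 ± 2.10% (SD, n = 3) of the PEA3 group in the control and 70.4 ± 1.36% with DAPT, and the sum of the group went from 2.52 ± 0.133 to 1.64 ± 0.195 RPKM. The summed RPKM of 10 MAP kinase phosphatases went from 70.2 ± 2.01 to 62.1 ± 2.35. *DUSP10* alone held 48.0 ± 1.597% of that sum in the control, whereas *DUSP5*, *DUSP6*, and *DUSP4* held 7.83 ± 0.349%, 2.32 ± 0.435%, and 1.97 ± 0.183%. *DUSP9* went from 9.11 ± 1.08% to 4.77 ± 1.02% of this sum, and *DUSP16* from 11.2 ± 0.283% to 15.8 ± 0.141%. The summed Sprouty level was 4.79 ± 0.329 RPKM in the control and 5.004 ± 0.336 RPKM with DAPT, in which *SPRY1* took 22.7 ± 0.983% and 30.2 ± 3.28%. These shares are descriptions and were not tested.

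Other genes known to be induced by ERK included called genes of both directions, beside 18% lower and 17.2% higher among all genes tested. The same shares apply to the lists that follow. Of 18 such genes 15 were tested, 4 were lower, 2 higher, and 9 not called, and the median log2 fold change was -0.03. *MYC*, a driver of growth and proliferation, fell by 0.77 (SE 0.06), *CCND1*, the cyclin D1 gene, by 0.67 (SE 0.06), and *FOSL1*, an AP-1 subunit, by 0.48 (SE 0.09). *EGR1*, an immediate early gene of the pathway, rose by 0.86 on the log2 scale (SE 0.08, adjusted p = 2.5e-08), from 28.2, 24.8, and 28.2 CPM in the control libraries to 53.5, 47.5, and 46.1 CPM in the DAPT libraries. *HBEGF*, a ligand of the EGF receptor, rose by 0.35 (SE 0.11, adjusted p = 0.0200). *EGR1* and *ETV4* therefore moved in opposite directions, with no overlap between groups for either.

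Of the 20 genes of the cascade itself, from the adaptors to the RSK kinases, 4 were lower and 3 higher, and the median was 0.00. The adaptor *SHC1* (-0.31), the RSK kinase *RPS6KA1* (-0.21), and the scaffold *KSR1* (-0.20) were lower, whereas *BRAF* (0.33) and the RAS exchange factors *SOS1* (0.25) and *SOS2* (0.21) were higher. With libraries scaled by their size alone, 1 gene of the cascade was lower and 5 were higher, so the balance of this list depended on the normalization.

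Of 15 further inhibitors of receptor, RAS, or RAF signaling, 4 were lower and 3 higher, with a median of -0.10. *CBLC*, a ubiquitin ligase of the CBL family, fell by 0.66 (SE 0.09), the adaptor *SH2B3* by 0.40 (SE 0.08), and *ERRFI1*, an inhibitor of the EGF receptor that is itself induced by growth factors, by 0.27 (SE 0.06). *CBLB* (0.37), *RASA1* (0.17), and the neurofibromin gene *NF1* (0.16) were higher.

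The 12 receptor tyrosine kinases included 4 lower and 3 higher genes, with a median of -0.10. *FGFR4* fell by 1.02 (SE 0.24), *FGFR2* by 0.38 (SE 0.06), and *DDR1* by 0.14 (SE 0.05), and *AXL* (0.24), *ERBB3* (0.19), and *MET* (0.18) were higher. *EGFR*, the EGF receptor gene, was at 967 ± 13.2 CPM in the control and 887 ± 29.2 CPM with DAPT (log2 fold change -0.12, SE 0.05, adjusted p = 0.0428), and its call is close to the threshold. Scaled by library size alone, 2 receptors were lower.

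Of 11 transcription factors and cofactors that ERK controls by phosphorylation or that act with them, 3 were lower and 3 higher, with a median of 0.09. *ETS1*, an ETS family activator, fell by 0.74 (SE 0.06), *ELK3* by 0.41 (SE 0.06), and *ERF*, an ETS repressor that ERK removes from the nucleus, by 0.39 (SE 0.08). *CIC*, the repressor of the PEA3 genes that ERK inactivates, was at 54.4 ± 6.22 CPM in the control and 55.0 ± 2.90 CPM with DAPT (0.02, SE 0.08, adjusted p = 0.856). *ATXN1* (0.37) and *ATXN1L* (0.19), whose proteins act together with CIC, were higher, as was *ELK4* (0.21). In each of these lists the called share may be read beside the 18% lower and 17.2% higher among all genes, and no list was tested as a set. Without control replicate 1, the numbers lower and higher were 5 and 2 among the ERK-induced genes, 5 and 4 in the cascade, 4 and 3 both among the inhibitors and among the receptors, and 3 and 3 among the transcription factors.

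**Figure D5:**
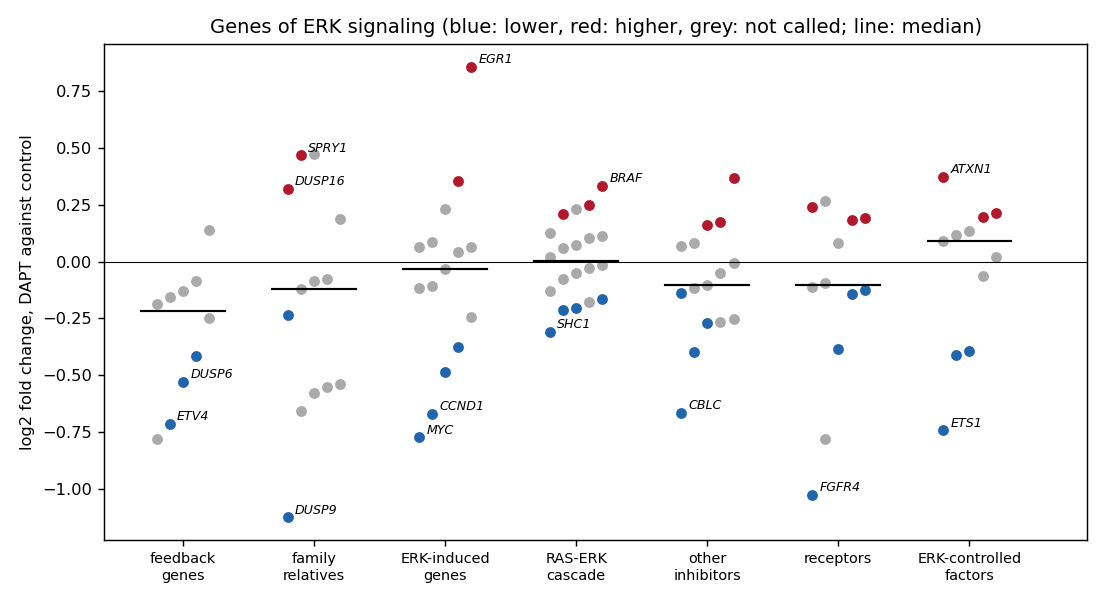
Log2 fold change of DAPT against control (y axis) of every tested gene in the 10 feedback genes and 6 related lists (x axis), with a line at the median of each list. Blue points were lower and red points higher at an adjusted p under 0.05. The median of the feedback genes, -0.22, is the lowest of the 7. Every list except the feedback genes holds both lower and higher genes, beside 18% lower and 17.2% higher among all genes tested. With library size alone, the feedback gene *SPRED1* was also called higher.

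The promoters were searched for short sequences bound by factors of the ERK or Notch pathway. Whether these sequences relate to the changes of the transcripts was not tested. The windows of 250 bases before and 50 bases after each start are those of RefSeq on GRCh38.p14, which gave 9 windows for 6 of the genes, *DUSP6*, *SPRY2*, *SPRY4*, *SPRED1*, *SPRED2*, and *PHLDA1*. The table had no entry for *DUSP4*, *DUSP5*, *ETV4*, and *ETV5*. Both strands were searched for the octamers bound by CIC (TCAATGAA, TCAATGGA, TGAATGAA, and TGAATGGA), the ETS core CCGGAA, the AP-1 site TGACTCA, and the core GTGGGAA of RBPJ, the DNA-binding partner of Notch. These were found in 3.77%, 17.2%, 4.95%, and 6.25% of 35116 windows, respectively. *DUSP6* held 2 CIC octamers, which begin 24 bases before and 2 bases after the start. *SPRY2* held 1 ETS core in 1 of its 3 windows, *PHLDA1* 1 ETS core in its 1 window, and *SPRED2* 1 AP-1 site in 1 of its 2 windows. The *SPRED2* and *PHLDA1* windows with a match belong to starts inside the counted gene, downstream of its outermost start. The RBPJ core was in 0 of the 9 windows. The 30 bases around each match follow, 5′ to 3′ on the strand of the gene, with the matched bases in capitals. The *DUSP6* and *PHLDA1* matches are on the opposite strand and so appear as the reverse complement of the searched letters.
DUSP6, chr12:89352507-89352536, minus strand: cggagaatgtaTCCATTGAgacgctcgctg
DUSP6, chr12:89352482-89352511, minus strand: cgctgtttgtaTCCATTGAggagctgcctc
SPRY2, chr13:80341251-80341280, minus strand: tccctgcctcctCCGGAAaggcgagggcgc
PHLDA1, chr12:76031848-76031877, minus strand: gaggagaggagtTTCCGGggctcgggtccg
SPRED2, chr2:65366766-65366795, minus strand: taaccctcggaTGACTCAtccggtacaatg

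*SPRY4* and *SPRED1* held none of the 4 motifs in their windows. A match describes the letters of the window only, and binding was not measured.

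Several of the genes share exonic bases with another gene. Counting was strand-specific, so the 28.6% of *DUSP6* exonic bases that lie opposite ENSG00000274021 and the 16.5% of *PHLDA1* opposite *PHLDA1-AS1* and *PHLDA1-DT* could still be assigned. Only *ETV5* shared bases on its own strand, 2.84% of its exonic length, where reads that overlap both genes were not counted.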

How the data were processed

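The authors prepared strand-specific mRNA libraries, sequenced 75 bp single-end reads, used Trim Galore for trimming and HISAT2 for alignment to GRCh38, and deposited raw read counts per Ensembl release 96 gene, made with featureCounts 1.6.3 (setting -s 1 per the file headers). The submitters' processing notes also list HTSeq and DESeq2, whose role is not given in the sources used here, and the study's methods name edgeR. Groups and replicate numbers came from the labels. Symbols were matched by identifier for 58472 of 58884 genes.

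The 3 DAPT and 3 control libraries were compared with edgeR 4.0.16 in R 4.3.3, using TMM, a filter on low counts (minimum count 10), a robust quasi-likelihood fit, and Benjamini-Hochberg adjustment over 15001 genes (threshold 0.05). SE and 95% intervals derive from this fit. CPM and RPKM, per exonic length of the count tables, were computed here. Alternatives included DESeq2 1.42.0, limma-voom (3.58.1), other normalizations and filters, a replicate block, and each library left out. Leaving out control replicate 1 together with library size scaling was added after the data were examined. The procedure was tested on simulated data.

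The 10 genes and all lists were chosen with earlier results of these data known. Named genes are the 10, their tested relatives, 4 Notch targets, and up to 3 called genes per direction in each other list, with genes of the cell type marker lists where these are described. *EGFR*, *CIC*, and *VIM* were named after their values were seen. Depth, 12276313 to 16317672 counts per library, limits precision for scarce genes.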

Additional observations from a re-analysis of the deposited data

How the results depend on the processing

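Across the alternatives, the number of the 10 genes called lower stayed between 2 and 3, except that 1 gene, *ETV4*, was lower when at least a 1.5-fold change was also required. Leaving out 1 library at a time gave 2 to 3 lower and 0 higher. Of all genes tested, 18% were called lower with all 6 libraries and 19.1% without control replicate 1. The share was 14.4% with library size alone and 14.5% with DESeq2. It was not computed when any other library was left out, so the steady count is not read as a trait of the 10 genes. The number called higher was 1, *SPRED1*, with library size alone, both with all libraries and without control replicate 1. *SPRY2*, which was never called, turned to 0.00597 (adjusted p = 0.976) without control replicate 1 and with library size alone. The cause was not tested. With each library left out, the difference in log2 ratio ranged from -0.06 to 0.34 for *DUSP5*/*DUSP6*, from 0.13 to 0.49 for *DUSP4*/*DUSP6*, from -0.89 to -0.49 for *SPRY4*/*SPRY2*, from -0.34 to -0.27 for *SPRED2*/*SPRED1*, and from -0.62 to -0.36 for *ETV4*/*ETV5*. The *DUSP5*/*DUSP6* ratio was reversed without control replicate 1 (-0.0623) and without DAPT replicate 2 (-0.0561).

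Fitting the replicate numbers as a replicate block gave 3 lower and 0 higher genes of the 10, beside 18.2% of all genes tested called lower. The departures from the group mean, compared between libraries with the same number, correlated at 0.02, 0.04, and -0.02 for replicates 1, 2, and 3 over 14199 genes, so the numbers were not taken to pair the libraries.

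Without control replicate 1, 4 family relatives were lower in place of 2, while 19.1% of all genes were called lower in place of 18%. With DESeq2, 1 relative and 1 other ERK-induced gene were higher in place of 2 each. *SPRY4* has no value when each library must hold 10 counts or more. The small number of libraries and, for *SPRY4* and *ETV5*, the few reads limit what these comparisons can show.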
